A study of Mus musculus with 8 samples.

Results

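Members of the families that build gap junctions and ATP-releasing channels were followed through duct tissue and culture, namely the connexin genes Gja1, Gjb1, Gjb2, Gjb5, Gjb6 and Gjc1 and the pannexin gene Panx1. They are 7 of the 31228 genes in the deposited table, taken by gene name from all 8 library columns. The genes were chosen by their levels in the same libraries, organoid against epithelium in each organ, so those levels and that contrast are given as description and carry no test. The libraries came from C57BL/6 mice with no named mutation, transgene or drug arm, and the age of the animals is not given in the sources used here. A single library was made from extrahepatic bile duct epithelium and 1 from pancreatic duct epithelium, both dissected, digested with collagenase and put into Trizol without culture. 3 libraries came from bile duct organoids and 3 from pancreatic duct organoids, which are hollow epithelial cultures grown in Matrigel, sequenced after 3 to 4 passages. The culture medium held EGF, R-Spondin-1, Noggin, FGF10 and nicotinamide, with Wnt3A medium and the kinase inhibitor Y27632 only until luminal organoids had formed. The study asked how alike the epithelia of the 2 ducts and their organoids are, and it had no separate control group.

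Connexins are proteins that cross the membrane of a cell in hexamers called connexons. A connexon docks with one in the neighbouring cell to form a gap junction channel, through which ions, second messengers and small metabolites pass, and undocked hemichannels can release ATP. In the biliary tree such coupling lets calcium waves spread between neighbouring cells, and ATP released at the apical side acts on purinergic receptors that drive fluid and bicarbonate secretion. Pannexin 1 forms large-pore channels that release ATP but does not build gap junctions of the usual kind.

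Levels are FPKM, a read density that allows for exon length and sequencing depth, scaled further between libraries, so that genes can be compared per length. The values imply 12876470 to 20828215 reads per library. Scaling lowered organoids relative to epithelium by 0.27 (bile duct) and 0.30 (pancreatic duct) on the log2 scale, and all changes are given relative to it. The summed level of 10 duct markers (keratins, Epcam, Sox9, Spp1, Cftr and others) was 2865 FPKM in the bile duct epithelium library and 715 FPKM in the pancreatic one, against 4860 to 10645 FPKM in organoids. Both epithelium libraries held other tissues. Summed smooth muscle markers stood at 3190 FPKM (bile duct) and 5905 FPKM (pancreatic duct), endothelial markers at 606 and 989 FPKM, and pancreatic acinar enzymes at 19436 and 39345 FPKM. In the organoids these sums lay between 0.873 and 6.33 FPKM for 7 smooth muscle markers, 0.170 and 0.447 FPKM for 9 endothelial markers (Cldn5 at 0 in every culture), and 2.04 and 7.78 FPKM for 8 acinar enzymes. Between organoids, read numbers differed least within bile duct organoids 2 and 3 (chi-square per degree of freedom 18.7). Bile duct organoid 1 lay nearer to pancreatic duct organoid 2 (37.7) than to its own group (119 and 122). Each pancreatic duct organoid likewise lay nearest to a bile duct organoid. The nearest values were 54.5 for organoid 1, 37.7 for organoid 2 and 35.4 for organoid 3, against 63.6 or more within their group. In bulk RNA, fewer cells of a type and less RNA per cell cannot be told apart.

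By FPKM, Gja1 and Gjb5 were higher in organoids than in epithelium in both organs, Gjb1 was higher in pancreatic duct organoids, and Gjc1 was close to absent from every organoid. Panx1 was moderately higher and Gjb2 hardly differed on that scale, and Gjb6 was near 0 throughout. A gene was counted as higher or lower where the difference of log2(FPKM + 1) between the organoid mean and the single epithelium library reached 1 (2-fold) and each of the 3 cultures lay on that side of it. Among bile duct libraries 6 members were measurable by a minimum of 1 FPKM in at least 1 library, of which 2 were higher and 1 was lower, where 12.3% of all 15727 genes were higher and 25.3% lower, 37.6% in all. Among pancreatic duct libraries 3 of 6 were higher and 1 lower, where 14.7% of 15515 genes were higher and 24.3% lower, 39.0% in all. Gjc1 reached that minimum in the epithelia alone and Gjb5 in the organoids alone. The median difference of these members was 0.65 in bile duct and 0.87 in pancreatic duct, against -0.04 and -0.03 over all genes. The members were chosen by this contrast, so their medians describe that choice and do not show a shift of the set.

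The duct markers rose with these genes, their sum going from 2865 FPKM to between 6118 and 10079 FPKM in bile duct and from 715 FPKM to between 4860 and 10645 FPKM in pancreatic duct. Set against that sum, Gja1, Gjb1, Gjb5 and Panx1 were lower in pancreatic duct organoids than in their epithelium. Per 100 FPKM of summed duct markers, Gja1 stood at 2.16 in pancreatic duct epithelium and at 0.588, 0.412 and 0.847 in its organoids, and Gjb1 at 1.37 against 1.03, 0.983 and 1.21. Gjb5 stood at 0.105 against 0.0274, 0.0290 and 0.0436, and Panx1 at 0.294 against 0.0489, 0.0318 and 0.0864. Gjb2, which hardly differed by FPKM, was lower in all 6 organoids on this scale, at 0.463 against 0.0272, 0.0639 and 0.0425 in pancreatic duct and 0.176 against 0.0563, 0.0951 and 0.0669 in bile duct. All 3 pancreatic duct organoids were thus below their epithelium for each of these genes. In bile duct Gja1 stood at 0.442 against 0.439, 0.730 and 0.729, and Gjb5 at 0.0217 against 0.0310, 0.0683 and 0.0666, while Panx1 was lower in all 3 organoids (0.0800 against 0.0347, 0.0715 and 0.0670) and Gjb1 lay on both sides (2.30 against 0.649, 3.13 and 1.45). The part of the share of duct cells in the differences by FPKM was not tested.

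**Figure D1:**
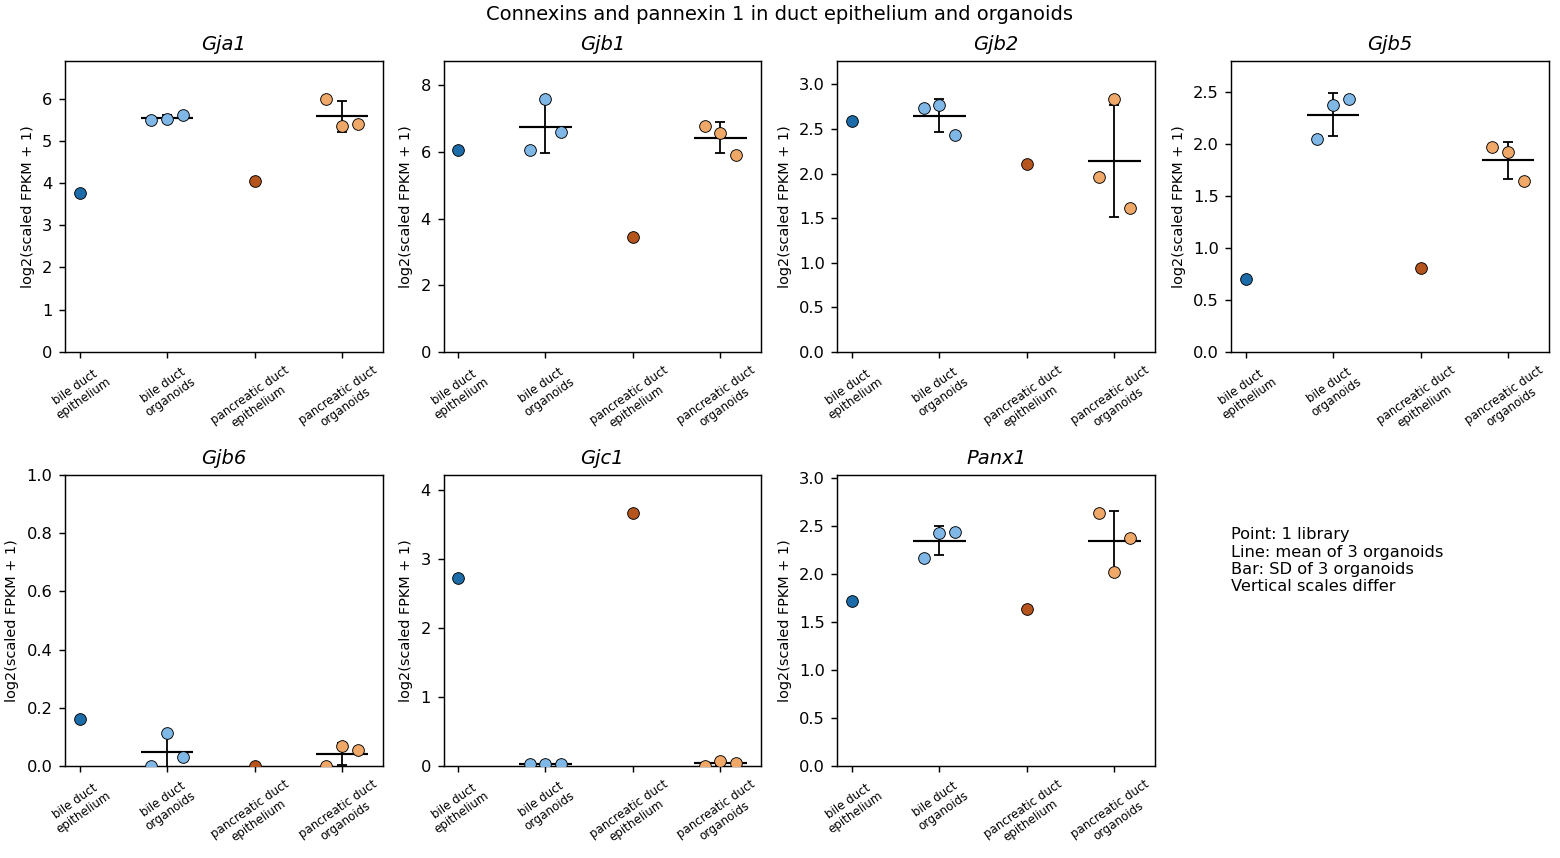
Level of each of the 7 genes, as log2(scaled FPKM + 1), in 1 epithelium library and 3 organoid libraries per organ (points), with the mean (line) and SD (bar) of the 3 organoids and a vertical scale particular to each gene. All 6 organoids lie above both epithelia for Gja1, Gjb5 and Panx1, and all 6 lie below both for Gjc1.

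Promoter sequence is shown for 3 members with unlike behaviour, the 2 that were higher in organoids of both organs (Gja1 and Gjb5) and one that hardly differed by FPKM (Gjb2). Each run is the 250 bases before the start listed in RefSeq (build GRCm38.p6), read 5′ to 3′ on the gene's strand, with motif matches in capitals. They lie at chr10:56377050-56377299 (plus strand), chr4:127358165-127358414 (minus strand) and chr14:57104703-57104952 (minus strand).
Gja1: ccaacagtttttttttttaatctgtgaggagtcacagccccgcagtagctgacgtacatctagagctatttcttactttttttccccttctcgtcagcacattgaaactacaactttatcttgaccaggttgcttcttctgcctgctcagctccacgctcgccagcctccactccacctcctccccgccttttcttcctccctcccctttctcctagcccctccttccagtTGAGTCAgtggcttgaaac
Gjb5: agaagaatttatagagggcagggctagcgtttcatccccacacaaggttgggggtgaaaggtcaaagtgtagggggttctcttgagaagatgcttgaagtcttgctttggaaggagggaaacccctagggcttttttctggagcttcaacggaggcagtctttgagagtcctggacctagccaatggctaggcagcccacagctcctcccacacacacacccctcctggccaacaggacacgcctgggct
Gjb2: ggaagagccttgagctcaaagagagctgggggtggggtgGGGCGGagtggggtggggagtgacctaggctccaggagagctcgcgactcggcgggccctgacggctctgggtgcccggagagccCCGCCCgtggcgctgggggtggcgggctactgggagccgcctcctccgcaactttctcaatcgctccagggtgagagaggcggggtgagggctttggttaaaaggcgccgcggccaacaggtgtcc
The motifs searched, on both strands, were TGANTCA (the core bound by AP-1), GGAATG (the core bound by TEAD factors) and GGGCGG (the core bound by Sp1), which do not overlap in these 3 runs. The Gja1 run held 1 TGANTCA match, ending 13 bases before the listed start, and 6.75% of 32851 mouse promoters of this length held at least 1. The Gjb2 run held 2 GGGCGG matches, ending 206 and 121 bases before the start, where 32.7% of promoters held at least 1. None of these letters stood in the Gjb5 run, and GGAATG, found in 12.6% of promoters, stood in none of the 3. A match describes the letters alone, since binding was not measured.

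Gja1 (ENSMUSG00000050953, GRCm38 chromosome 10, 56377330 to 56402513, plus strand) encodes Cx43, the most widely expressed connexin of mammals. It stood at 12.7 FPKM in bile duct epithelium and at 44.2, 44.7 and 48.1 FPKM in bile duct organoids 1, 2 and 3. Pancreatic duct epithelium had 15.5 FPKM, and its organoids had 62.6, 39.6 and 41.1 FPKM. The lowest organoid was thus more than 2-fold above the higher epithelium, and no library lay between. On the log2 scale the difference was 1.77 ± 0.07 in bile duct and 1.54 ± 0.36 in pancreatic duct (SD, n = 3 organoids each). The read numbers gave 3.60-fold (95% interval 3.42 to 3.80) and 3.02-fold (2.89 to 3.16), where the intervals cover counting error only. The 3 bile duct organoids agreed closely, with a coefficient of variation of 4.67%, while pancreatic duct organoid 1 stood above the other two of its group and gave a coefficient of 26.9%.

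Gjb1 (ENSMUSG00000047797, chromosome X, 101376378 to 101385629, plus strand) encodes Cx32, the main connexin of hepatocytes and of secretory cells such as pancreatic acini. Its level was 66.0 FPKM in epithelium of the bile duct but 9.82 FPKM in that of the pancreatic duct. Bile duct organoids had 65.4, 191 and 95.8 FPKM, and pancreatic duct organoids had 109, 94.4 and 58.6 FPKM. Bile duct organoid 1 was level with its epithelium, so Gjb1 did not meet the rule there (log2 difference 0.68 ± 0.78, SD, n = 3 organoids), and it did without that culture, at 1.03. Without bile duct organoid 2, the highest library of all 8, the difference was 0.26. In pancreatic duct every organoid was well above the epithelium by FPKM, with a difference of 2.98 ± 0.46 on the log2 scale and 8.58-fold by reads (95% interval 7.51 to 9.85), though below it per summed duct markers as given above.

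By FPKM, the member in which the epithelia differed most was Gjb1. It was 6.72-fold higher in bile duct than in pancreatic duct epithelium by read number (95% interval 5.82 to 7.79 for counting error, from 1263 and 221 reads), a log2 difference of 2.63. On the log2(FPKM + 1) scale it was the only one of 5 measurable members at least 2-fold apart between the epithelia, while by read number Gjc1 also was (2.10-fold, higher in pancreatic duct). On the log2 scale 13.7% of 15092 genes were at least 2-fold apart with 9.08% higher and 4.64% lower in bile duct. With 1 library on each side this difference has no replicate check. The summed duct markers moved with it, being 4.01-fold higher in the bile duct library, and all 10 were higher there, as were hepatocyte markers (438 against 97.8 FPKM), while acinar enzymes were 0.494 times as high. Summed intestinal markers stood at 1179 against 764 FPKM, with 7 of 8 higher in bile duct. Among them Defa24 had 238 against 0.543 FPKM and Fabp1 189 against 7.96 FPKM, while Zg16 went the other way (512 against 745 FPKM). Per 100 FPKM of summed duct markers, Gjb1 came to 2.30 in bile duct and 1.37 in pancreatic duct tissue, closer together than Gjc1 (0.195 and 1.63) and Gja1 (0.442 and 2.16), which were higher in pancreatic duct. The part of the differing tissue make-up in this result was not tested.

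Gjb2 (ENSMUSG00000046352, chromosome 14, 57098600 to 57104702, minus strand) encodes Cx26, a partner of Cx32 in hepatic gap junctions. Bile duct epithelium had 5.04 FPKM, and bile duct organoids had 5.68, 5.82 and 4.42 FPKM. Pancreatic duct epithelium had 3.31 FPKM against 2.89, 6.14 and 2.06 FPKM in its organoids. Organoids thus lay on both sides of the epithelium in each organ, and the log2 differences were 0.05 ± 0.18 and 0.03 ± 0.63 (SD, n = 3 organoids each). By reads the organoid-to-epithelium ratio was 1.05 (95% interval 0.876 to 1.27) and 1.08 (0.876 to 1.35).

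Gjb5 (ENSMUSG00000042357, chromosome 4, 127354809 to 127358181, minus strand) encodes a connexin known from skin and other stratified epithelia and from placenta. It was weakly expressed, with 0.622 FPKM (12 reads) in epithelium of the bile duct and 0.749 FPKM (17 reads) in that of the pancreatic duct. Bile duct organoids had 3.12, 4.18 and 4.40 FPKM and pancreatic duct organoids 2.91, 2.79 and 2.12 FPKM, all above both epithelia. The log2 difference was 1.58 ± 0.21 in bile duct and 1.04 ± 0.18 in pancreatic duct (SD, n = 3 organoids each). Because of the few epithelial reads, the read ratios were loose, 6.33-fold (95% interval 3.58 to 12.3) and 3.41-fold (2.09 to 5.95). In pancreatic duct the rule was met narrowly, and without organoid 1 or organoid 2 the difference fell just short of 2-fold (0.973 and 0.997). Summed squamous markers were 61.6 FPKM in the bile duct epithelium library, 2.35 FPKM in the pancreatic one and 18.3 to 53.9 FPKM in organoids, where 4 of 10 reached 1 FPKM in any culture, led by Sprr1a at up to 28.2 FPKM. Sprr1a alone made 56.0 FPKM of the bile duct epithelium sum. Krt6a (0.356 and 0.101 FPKM in the epithelia, 1.54 to 24.9 FPKM in organoids) and Ivl (0 in both, 0.261 to 4.10 FPKM) were higher in all 6 organoids than in both epithelia, as Gjb5 was, and so was Krt5 at up to 0.980 FPKM, which makes 3 of the 10. Trp63 and Krt15 were lower in all 6 organoids, and Sprr1a was lower than the bile duct epithelium in all 3 bile duct organoids (4.81 to 21.9 FPKM). The part of these markers in the Gjb5 level was not tested.

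Gjb6 (ENSMUSG00000040055, chromosome 14, 57123303 to 57133611, minus strand) encodes Cx30, best known in astrocytes and the inner ear, and lies near Gjb2. It was listed at 0.118 FPKM in epithelium of the bile duct and at 0 in that of the pancreatic duct. Bile duct organoids had 0, 0.082 and 0.022 FPKM, and pancreatic duct organoids had 0, 0.049 and 0.039 FPKM. No library reached 1 FPKM, so Gjb6 was the one member left out of every comparison, and no fold is given.

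Gjc1 (ENSMUSG00000034520, chromosome 11, 102799579 to 102819700, minus strand) encodes Cx45, known in vascular and visceral smooth muscle, the heart's conduction tissue and neurons. The epithelia had 5.58 FPKM (bile duct, 313 reads) and 11.7 FPKM (pancreatic duct, 771 reads). Bile duct organoids had 0.022, 0.019 and 0.020 FPKM, which is 2 reads each. Among pancreatic duct organoids, which had 0, 0.056 and 0.026 FPKM, the first had no read, where a count of 0 allows up to 3 reads. Epithelium exceeded organoids 276-fold by read number in bile duct (95% interval 125 to 757) and 414-fold in pancreatic duct (209 to 963). On the log2(FPKM + 1) scale, which understates changes of low genes, the differences were -2.69 and -3.63. Between the epithelia Gjc1 was 2.10-fold higher in pancreatic duct by reads (1.84 to 2.40), and -0.95 on the log2 scale, just inside the 2-fold rule. Smooth muscle and endothelial markers moved the same way, as given above, with 2 of 7 and 1 of 9 genes higher in bile duct than in pancreatic duct epithelium, and no endothelial marker reached 1 FPKM in any organoid. Of the smooth muscle markers 1 did, Myl9 at up to 5.83 FPKM. The part of these cell types in the Gjc1 result was not tested.

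Panx1 (ENSMUSG00000031934, chromosome 9, 15002128 to 15045478, minus strand) encodes the pannexin that opens as an ATP-release channel. Its level was 2.29 FPKM in bile duct epithelium and 3.50, 4.37 and 4.42 FPKM in bile duct organoids. Pancreatic duct epithelium had 2.10 FPKM, and its organoids had 5.21, 3.06 and 4.20 FPKM. Every organoid exceeded both epithelia, but the log2 differences, 0.63 ± 0.15 and 0.71 ± 0.31 (SD, n = 3 organoids each), were under 2-fold. The ratio by reads was 1.80 (95% interval 1.52 to 2.14) and 1.96 (1.67 to 2.32). The other pannexins were scarcely detected, with Panx2 at 0.015 to 0.354 FPKM and Panx3 at 0 to 0.078 FPKM over the 8 libraries.

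Other connexin and pannexin genes were followed beside the members. Of 19 connexin and pannexin genes listed, the 7 included, 18 were found in the table (Gjd4 was not matched), and 11 of these are not among the 7. Of the 11, 3 reached 1 FPKM in at least 2 libraries and were tested with limma over all 8 libraries, organoids against epithelia, with organ as a covariate and Benjamini-Hochberg adjustment over 14919 genes. The fit takes the change to be the same in both organs, each with 1 epithelium library, and so averages unequal changes. Its spread comes from the organoids and from the departure of the epithelia from a common change. In that fit 27.6% of genes passed as higher in organoids and 30.0% as lower (4115 and 4480 genes, against 5497 and 3659 without scaling). The 3 genes were Gja4 and Gja5, connexins of endothelium, and Gjc3, a connexin of myelinating glia, and each was lower in organoids. All 3 reached 1 FPKM in the epithelia alone, so that they entered the test through the group where they are high and had to differ, and their values are given as description. Of all genes, 1880 entered in this way, of which 99.9% passed as lower. Among the 12030 genes that reached 1 FPKM in at least 1 epithelium and 1 organoid, 30.4% passed as higher and 21.6% as lower, with a median difference of 0.08.

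Gja4 stood at 16.7 FPKM in the bile duct and 111 FPKM in the pancreatic duct epithelium and at no more than 0.776 FPKM in any organoid. Gja5 had 4.70 and 45.3 FPKM in the epithelia and at most 0.046 FPKM in the organoids. Gjc3 (3.56 and 5.94 FPKM in the epithelia) had no read in any organoid, where a count of 0 allows up to 3 reads each. Without either epithelium the 3 genes no longer reached 1 FPKM in 2 libraries and had no value in the fit. The endothelial markers given above moved the same way. So did 7 nerve and Schwann cell markers, with sums of 71.3 and 131 FPKM in the epithelia and 12.3 to 22.0 FPKM in the organoids, where 2 of the 7 reached 1 FPKM in any culture, led by Mbp at up to 15.5 FPKM. The part of these cell types in the lower levels was not tested. The other 8 genes stayed under 1 FPKM in all 8 libraries: Gjd3 peaked at 0.997 FPKM in pancreatic duct epithelium, and Gja3, Gja6, Gja10, Gjd2, Gje1, Panx2 and Panx3 at 0.354 FPKM or less.

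**Figure D2:**
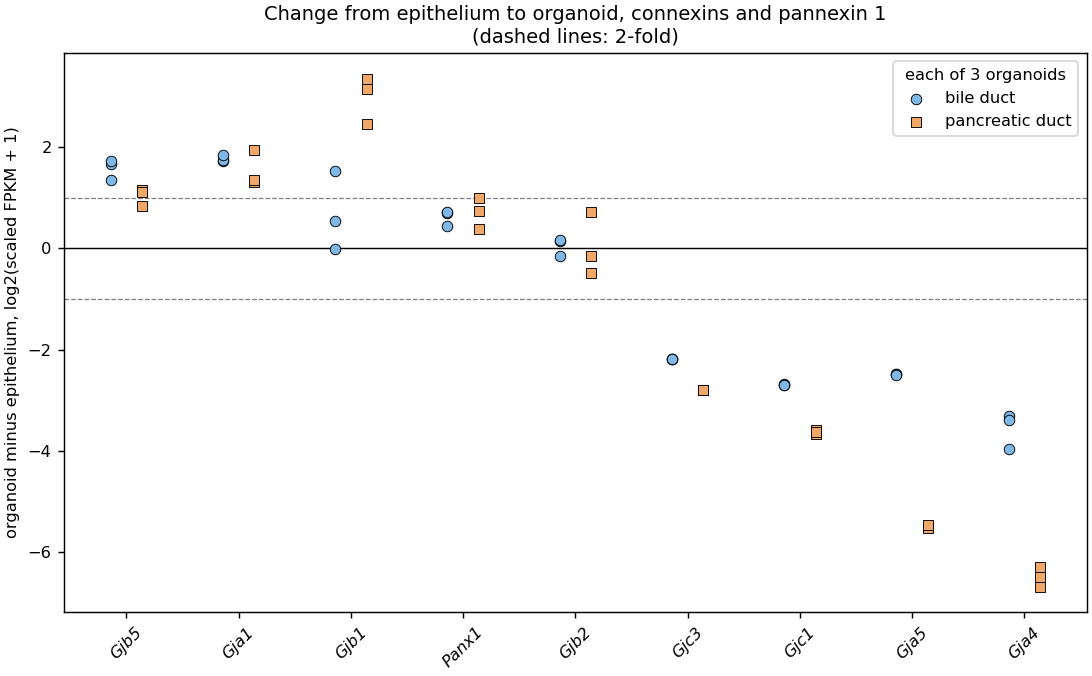
Difference between each organoid and the epithelium of its organ, as log2(scaled FPKM + 1), for 9 connexin and pannexin genes with at least 1 FPKM in both comparisons (circles, bile duct; squares, pancreatic duct; dashed lines, 2-fold). Gjb1 of pancreatic duct has the highest points, and Gja4 of pancreatic duct the lowest, while Gjb2 scatters around 0.

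Among the genes described here, the order of levels over the 6 organoids was Gjb1 (103 ± 47.7 FPKM), Gja1 (46.7 ± 8.31), Gjb2 (4.50 ± 1.69), Panx1 (4.13 ± 0.756) and Gjb5 (3.25 ± 0.872), each in FPKM with SD over 6 libraries. Gjb1 exceeded Gja1 in 6 of 6 libraries, with ranges that overlapped (58.6 to 191 and 39.6 to 62.6 FPKM). Gjb2 and Panx1 could not be ordered, Gjb2 being above in 3 of 6 libraries. Panx1 exceeded Gjb5 in 6 of 6, also with overlapping ranges. In bile duct epithelium the same order began with Gjb1, Gja4 (16.7 FPKM) and Gja1, and in pancreatic duct epithelium with Gja4 (111 FPKM), Gja5 (45.3 FPKM) and Gja1, with a single library behind each.

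Whether organoids kept a difference between the organs was tested with limma on the 6 organoids, a contrast that played no part in choosing the genes. Of 12106 genes that reached 1 FPKM in 3 or more of them, 0.0% passed an adjusted p of 0.05, although 305 had an unadjusted p under 0.05, and voom on the recovered reads also passed 0. The number with an unadjusted p under 0.05 moved with single libraries, to 1018 without bile duct organoid 1. That culture lay nearest to a pancreatic duct library, and each pancreatic duct organoid lay nearest to a bile duct library. The number was 159 without bile duct organoid 2 and 189 without bile duct organoid 3. 5 members entered this test and none passed. Gja1 and Panx1 had the estimates nearest 0. Gja1 differed by -0.03 (95% interval -0.48 to 0.43, bile duct minus pancreatic duct, log2) and Panx1 by 0.01 (-0.45 to 0.46). For Gjb1, which was so unequal between the epithelia, the organoid difference was 0.33 (-0.70 to 1.37), an interval that leaves out the 2.63 seen between the epithelia, though the difference between these contrasts was not tested. Single cultures moved the Gjb1 estimate, to -0.09 without bile duct organoid 2 and to 0.68 without bile duct organoid 1. Gjb2 differed by 0.52 (-0.26 to 1.30). All these genes had an adjusted p of 1.00 in limma, which does not show that the groups were alike.

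Of the 5 members, Gjb5 had the lowest unadjusted p in this fit, and Gjb2 the largest estimate. The 3 bile duct organoids had Gjb5 levels (3.12 to 4.40 FPKM) above those of all 3 pancreatic duct organoids (2.12 to 2.91 FPKM), and 6.75% of the genes tested were separated in this way in either direction (3.54% with bile duct higher). The limma difference was 0.45 (SE 0.16, 95% interval 0.05 to 0.85), with an unadjusted p of 0.0326 and an adjusted p of 1.00. In limma the unadjusted p of Gjb5 was 0.0756 with the replicate number as a block and 0.0119 to 0.108 on leaving out each organoid. That of Gjb2 was 0.152, and 0.00478 without pancreatic duct organoid 2, where its limma difference was 0.88. Nothing in the deposited labels says whether the 3 organoid libraries of a group came from separate animals, so these p-values measure the spread between the libraries, which may be technical.

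**Figure D3:**
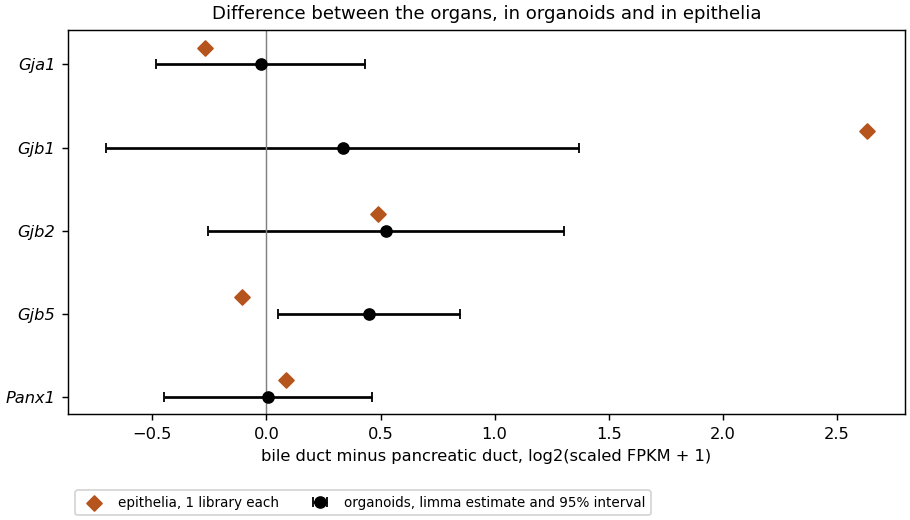
Bile duct minus pancreatic duct difference of log2(scaled FPKM + 1) for 5 of the 7 genes: limma estimate with 95% interval over 6 organoids (black) and the difference between the single epithelium libraries (diamonds). The Gjb1 diamond at 2.63 lies outside the organoid interval of -0.70 to 1.37, and Gjb5 has the one interval that excludes 0, with an adjusted p of 1.00.

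Genes that hold, move or regulate connexins were then followed in the fit over all 8 libraries. Of 18 such partners, 11 rose in organoids and 3 fell, with a median log2 difference of 0.67. All 18 reached 1 FPKM in both kinds of library, where 30.4% of genes passed as higher and 21.6% as lower, with a median of 0.08. The summed duct markers given above rose with them in both organs, and per 100 FPKM of that sum 10 of the 11 lay below the epithelium in all 3 pancreatic duct organoids and 7 in all 3 bile duct organoids. Their part in these rises was not tested. The 3 that rose most were Cdh1, Ezr and Sgsm3. By organ (bile duct, then pancreatic duct) the log2 differences were 1.64 and 3.52 (Cdh1), 1.68 and 2.72 (Ezr), and 1.23 and 2.29 (Sgsm3). The fit averaged these unequal changes. Cdh1, the E-cadherin whose adhesion precedes gap junction assembly, went from 115 FPKM in bile duct and 33.6 FPKM in pancreatic duct epithelium to between 290 and 494 FPKM in the organoids (limma 2.58, SE 0.44, adjusted p = 0.00205). Ezr, an actin linker of apical membranes, rose by 2.20 (SE 0.27, adjusted p = 0.000409, limma). Sgsm3, which encodes a protein that binds Cx43, rose by 1.76 (adjusted p = 0.00358, limma) but had an adjusted p of 0.0675 without pancreatic duct epithelium.

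Cav1, the caveolin of membrane pits, fell from 223 and 435 FPKM in the epithelia to between 29.2 and 75.8 FPKM (limma -2.55, SE 0.44, adjusted p = 0.00213). Its log2 difference was -1.82 in bile duct and -3.28 in pancreatic duct, while that of Cnst was more alike (-1.73 and -1.59). Cnst, which encodes consortin, a receptor that carries connexins to the cell surface, stood at 8.52 and 7.26 FPKM in the epithelia and at 1.39 to 2.10 FPKM in the organoids (limma -1.66, SE 0.14, adjusted p = 7.04e-05). The call for the ubiquitin ligase Smurf2 (-0.53, adjusted p = 0.0403, limma) was lost with unscaled values (adjusted p = 0.189) and without bile duct epithelium (0.0721) or pancreatic duct epithelium (0.309). Cav1 is also expressed strongly by endothelium and smooth muscle, whose markers are given above, and their part in its fall was not tested.

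On the receiving side of released ATP, 13 purinergic receptors were measured, of which 5 reached 1 FPKM in both kinds of library. Of these 5, 2 rose (P2ry2 and P2ry6) and 2 fell (P2rx4 and P2ry1), with a median of -0.53, where 30.4% of all genes of this kind passed as higher and 21.6% as lower. P2ry2, the receptor by which ATP and UTP drive duct secretion, rose from 3.68 FPKM in bile duct epithelium to 40.4, 25.0 and 22.3 FPKM in its organoids, and from 5.35 FPKM in pancreatic duct epithelium to 26.3, 49.9 and 25.8 FPKM. The limma difference was 2.52 (SE 0.31, adjusted p = 0.000460), higher in 6 of 6 organoids. P2ry6, a receptor for UDP, rose by 0.81 (adjusted p = 0.0162, limma), with adjusted p-values of 0.0938 and 0.137 without bile duct or pancreatic duct epithelium. Per 100 FPKM of summed duct markers, P2ry2 stood at 0.128 in bile duct epithelium against 0.401, 0.409 and 0.337 in its organoids, but at 0.748 in pancreatic duct epithelium against 0.247, 0.520 and 0.531. P2ry6 was lower in all 6 organoids on that scale, and the part of the duct markers in these rises was not tested. P2rx4 and P2ry1, both receptors for extracellular nucleotides, differed by -0.75 (adjusted p = 0.0213, limma) and -1.19 (adjusted p = 0.00431, limma). Neither passed without bile duct epithelium (adjusted p = 0.122 and 0.0544, limma) or without pancreatic duct epithelium (0.112 and 0.0692), nor P2rx4 with unscaled values (0.0578). P2rx2 and Adora1 reached 1 FPKM, as deposited, in organoids alone, so they entered the test through the group where they are high. Of 1009 genes that entered in this way, 45.5% passed as higher and 0 as lower. The values of P2rx2 and Adora1 are therefore given as description. P2rx2, an ATP-gated cation channel, had 0.242 and 0.0884 FPKM in the epithelia and 0.939 to 17.8 FPKM in the organoids, and Adora1, an adenosine receptor, had 1.14 and 0.682 FPKM after scaling against 0.379 to 4.20 FPKM. Neither passed in limma (adjusted p = 0.0738 and 0.474), although P2rx2 did with a pseudocount of 0.1 (adjusted p = 0.0268) and without bile duct organoid 2 (0.0393) or pancreatic duct organoid 3 (0.0303). Another 6 receptors reached 1 FPKM in the epithelia alone and so had to be lower (P2rx1, P2rx6, P2rx7, P2ry12, P2ry13 and Adora2a). Several of them are known from platelets, smooth muscle, acinar cells or leukocytes. P2rx1 had 9.85 and 145 FPKM in the epithelia and no read in any of 6 organoids, where a count of 0 allows up to 3 reads each. P2rx7 had 7.57 and 5.01 FPKM in the epithelia and between 0.093 and 0.262 FPKM in the organoids, and P2ry12 had 3.19 and 5.42 FPKM against at most 0.022 FPKM. Summed leukocyte markers were 437 and 414 FPKM in the epithelia and 2.59 to 12.6 FPKM in the organoids, and their part in these lower levels was not tested.

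Of 7 genes of ATP storage and breakdown outside the cell, 3 reached 1 FPKM in both kinds of library, and all 3 fell, where 21.6% of all such genes did. They were Slc17a9, the vesicular nucleotide transporter, and the ecto-nucleotidase genes Entpd2 and Enpp1, with limma differences of -1.37 (adjusted p = 0.000398), -1.34 (adjusted p = 0.00175) and -1.21 (adjusted p = 0.0118). Enpp1 had an adjusted p of 0.170 in limma without bile duct epithelium. Another 3 genes reached 1 FPKM in the epithelia alone and so had to be lower. Entpd1, the ecto-nucleotidase CD39, stood at 29.7 and 56.8 FPKM in the epithelia and had no read in any organoid. Enpp3 had 8.49 and 4.51 FPKM in the epithelia and at most 0.017 FPKM in the organoids. Nt5e, the enzyme CD73 that makes adenosine, had 5.10 and 4.82 FPKM against a range of 0.010 to 0.661 FPKM, where pancreatic duct organoid 2 was the highest. Entpd3 reached 1 FPKM in the organoids alone, with 0.404 and 0.384 FPKM in the epithelia and 0.907 to 2.62 FPKM in the organoids. The endothelial, leukocyte and acinar sums given above were lower in organoids together with these genes, and their part was not tested.

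The LRRC8 proteins build the volume-regulated anion channel, another path for ATP and osmolytes. All 5 genes were measured, with a median of 0.82. Of these, 3 rose and 0 fell by limma at an adjusted p under 0.05, and 1 was lower at an unadjusted p under 0.05 (Lrrc8c). Among all genes that reached 1 FPKM in both kinds of library, 30.4% passed as higher and 21.6% as lower. Lrrc8e had 1.45 and 0.605 FPKM in the epithelia and 3.06 to 4.18 FPKM in the organoids (limma 1.19, SE 0.12, adjusted p = 0.000182). Lrrc8b rose by 0.82 (adjusted p = 0.00225, limma). Lrrc8d rose by 0.93 (adjusted p = 0.00487, limma), with an adjusted p of 0.0768 without pancreatic duct epithelium. Per 100 FPKM of summed duct markers, all 3 genes lay below the epithelium in every pancreatic duct organoid. In bile duct Lrrc8e lay above it in 2 of 3 organoids (0.0504 against 0.0407, 0.0683 and 0.0549), Lrrc8d in 1 of 3 and Lrrc8b in 0 of 3, and the part of these markers in the rises was not tested. Lrrc8c and the obligatory subunit gene Lrrc8a did not pass, at -1.78 (adjusted p = 0.0682) and -0.46 (adjusted p = 0.0935) in limma. Both passed as lower without bile duct organoid 1 (adjusted p = 0.0163 and 0.0403, limma), and Lrrc8c also without pancreatic duct organoid 2 (adjusted p = 0.0350, limma).

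**Figure D4:**
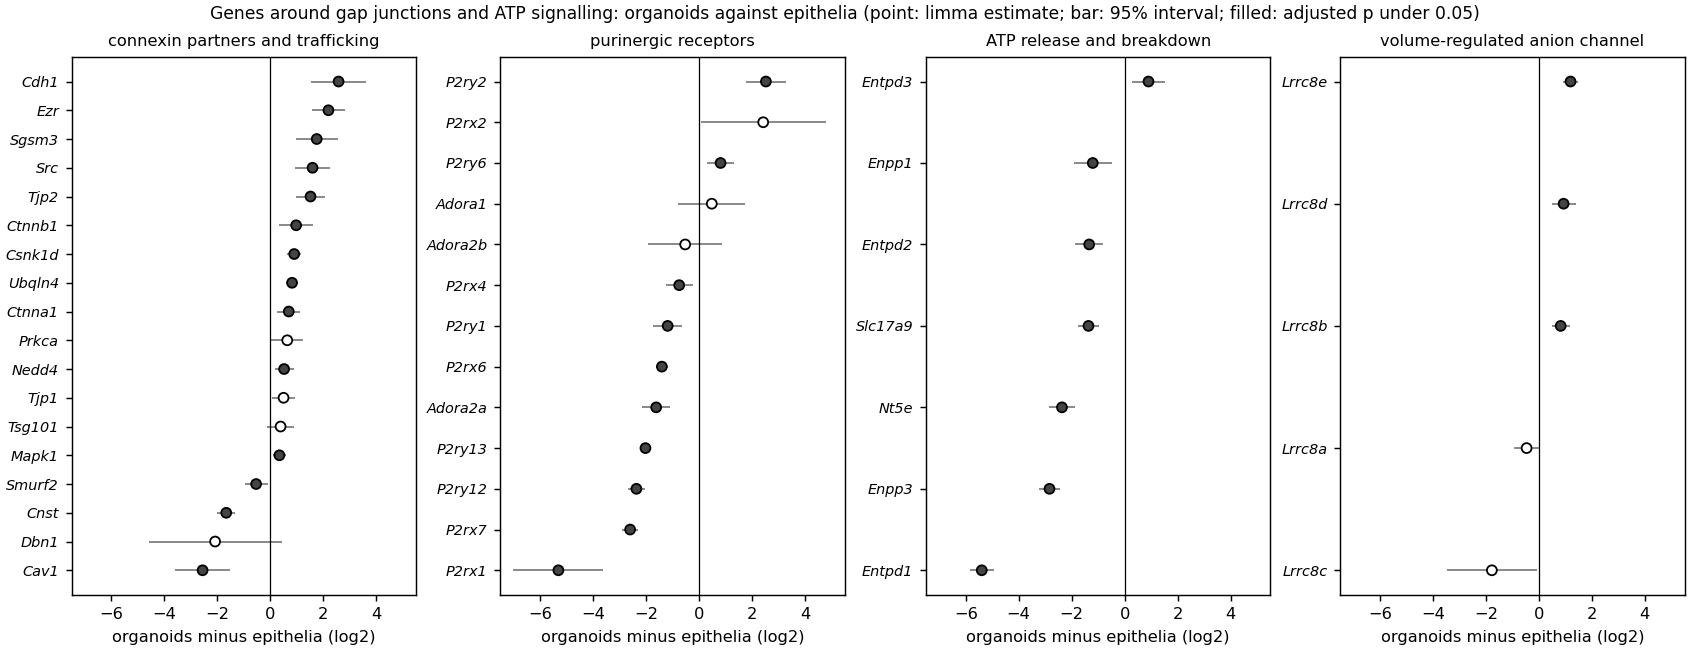
Organoid minus epithelium log2 difference over all 8 libraries (limma estimate with 95% interval, filled where the adjusted p is under 0.05) for 43 genes in 4 panels: connexin partners, purinergic receptors, ATP release and breakdown, and the volume-regulated anion channel. Most partners lie to the right of 0, and most purinergic and ATP breakdown genes to the left, with P2rx1 and Entpd1 farthest. Of these genes, 6 purinergic and 3 ATP breakdown genes reached 1 FPKM in the epithelia alone, and 2 purinergic and 1 ATP breakdown gene in the organoids alone.

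Genes whose levels ran most nearly parallel to each member over the 8 libraries were sought among 12400 protein-coding genes by the Pearson correlation of log2(FPKM + 1). The coefficients describe 8 libraries that fall into epithelium and organoids, and they carry no test. For Gja1 they were Polr3b (0.996) and Ddx23 (0.995), and for Gjb1, Mlph and Vsig1 (both 0.984). Gjb5 was followed by Ppie (0.986) and Nt5c1a (0.985), and Panx1 by Cd2bp2 (0.989) and Lrrc1 (0.988). For Gjc1 the closest were Gimap5 and Aatk (both 1.000), which like Gjc1 were listed near 0 in all 6 organoids. Gjb2 had the loosest match, Adgrg2 (0.927) and Ctsc (0.905).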

How the data were processed

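Polyadenylated RNA was sequenced from NEBNext libraries, per the labels' protocols. The submitters' processing notes name Bowtie2 2.2.3, HISAT2 2.1.0, TopHat2 and HTSeq 0.6.0, without roles. Whether counting used strand and how replicates were obtained are not given in the sources used here. The authors deposited 1 table of values whose unit, read from the values and their whole-read steps, is FPKM. Of 31228 genes, 90.5% came out as whole reads in all 8 libraries (tolerance 0.05 of a read) given GENCODE M21 exon lengths, but Gjb6 and Gja3 did not, so no reads are quoted for them.

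FPKM were scaled by a trimmed mean of log ratios (30% of ratios and 5% of levels trimmed) over 16541 genes with at least 1 FPKM in any library, separately for the 6 organoids where these were tested alone. log2(FPKM + 1) was tested with limma 3.58.1 in R 4.3.3 with an intensity trend. Minimums were applied to FPKM as deposited, before scaling. Genes needed at least 1 FPKM in 3 organoids for the organoid comparison, in 2 libraries for the comparison of organoids with epithelia, and in 1 library for comparisons without a test. Groups came from the source in the labels. Intervals on reads are exact at 95% and cover counting error only, with a floor of 3 reads for a count of 0. Tables and figures were made with Python 3.11.15, pandas 2.3.3, numpy 2.4.6, scipy 1.17.1 and matplotlib 3.10.9. The fits were tested on simulated data.

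The members and all lists were chosen with earlier results of these data known. Named were all members, other connexins and pannexins, the 3 genes per list that rose and the 3 that fell most, and the 2 genes most parallel to each member. The count of genes by where they reached 1 FPKM, the receptors and enzymes outside that rule, the genes of the LRRC8 list that did not pass and the values per duct marker were added after values were seen. Alternatives covered scaling, pseudocount, filter, fold, trend, replicate block, a voom fit on recovered reads and leaving out each library. No protein sequence was used here, and the promoter of Gjc1 was not used. Some genes of the family are not reported here.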

Additional observations from a re-analysis of the deposited data

How the results depend on the processing

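With 1 library per epithelium, every organoid-against-epithelium value rests on that library. The count of members 2-fold apart was 3 in bile duct and 4 in pancreatic duct. In bile duct it became 1 with a minimum of 5 FPKM as deposited (Gja1; Gjc1 had 4.86 FPKM before scaling) and 1 at 4-fold (Gjc1), and in pancreatic duct 2 at 4-fold (Gjb1 and Gjc1). Between the epithelia it was 1, and 2 with a pseudocount of 0.1 or at 1.5-fold, where Gjc1 joined Gjb1. Leaving out each organoid gave 3 to 4 members in each organ.

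Between the organoid groups the count of genes was 0, and 0 to 11 when leaving out each organoid, the 11 arising without pancreatic duct organoid 3, with no member among them. The replicate number as a block gave 0 genes with 284 unadjusted, and voom 0 genes with 244 of 10285 unadjusted. Same-numbered organoids correlated at -0.106, -0.441 and 0.480 in their deviations, and 2 of 6 organoids correlated best with their own number, so the numbers were not taken as a pairing.

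For organoids against epithelia, 37 of 46 listed genes outside the members passed, but 12 of the 46 reached 1 FPKM in the epithelia alone and had to be lower. Another 3 reached it in the organoids alone, of which 1 passed as higher. Of 31 that reached it in both kinds of library, 16 rose and 8 fell. The alternatives were counted over all listed genes tested, of which 37 of 46 passed in the main fit. This became 23 of 29 with a minimum of 5 FPKM, 16 of 34 without bile duct epithelium and 14 of 34 without pancreatic duct epithelium, and leaving out each library gave 14 to 40. Over all genes, 8595 passed, and 3977 to 8895 when leaving out each library, with 4431 without bile duct epithelium and 3977 without pancreatic duct epithelium. In those fits the organ without an epithelium adds no direct contrast, and fewer genes were tested. Without scaling, 5497 genes were higher and 3659 lower, against 4115 and 4480. No value of a member or listed gene that met its rule or test changed sign under an alternative. Among values of single listed genes under the alternatives, 28 lost and 14 gained an adjusted p under 0.05, and 561 stayed on their side. Depth limits Gjb5, with 17 or fewer reads per epithelium, and Gjc1, with 5 or fewer per organoid.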
